A study of Mus musculus with 4 samples.

Results

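The genes described here encode 9 mRNA-bound regulators of translation: the fragile X proteins (Fmr1, Fxr1, Fxr2), the cytoplasmic polyadenylation element-binding proteins (Cpeb2, Cpeb3, Cpeb4), Pumilio (Pum2), the cytoplasmic poly(A)-binding protein (Pabpc1) and the La-related protein (Larp1). They were taken by gene symbol from a table of 48431 genes, and each symbol occurred once. The rule itself reads no measured value, but the genes were proposed with earlier results of these data in view. The table held ribosome footprints, the short mRNA pieces that ribosomes shield from nuclease, of dorsal root ganglia, where the cell bodies of sensory neurons lie. All 4 libraries formed 1 group: WT female SW mice given paclitaxel, a taxane used against tumours that stabilises microtubules and can damage sensory nerves, i.p. at 4 mg/kg in 4 injections on alternate days. The sources used here do not give age, pooling or whether each replicate was its own animal. The p-values therefore cover only the spread among these 4 libraries, which may be technical. Untreated mice and RNA abundance were not analysed here, so no value below is an effect of paclitaxel or a translational efficiency.

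These proteins control how much protein an mRNA yields. FMRP, the product of Fmr1, binds coding sequence on ribosome-bound mRNAs and lowers their translation, and CPEB and Pumilio proteins read short sequence words in 3′ untranslated regions (UTRs) to lengthen or shorten the poly(A) tail. PABPC1 coats that tail, and LARP1 binds the 5′ end of mRNAs for ribosomal proteins. In sensory neurons, translation in the cell body and the axon is known from rodents to contribute to pain sensitisation.

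The libraries held an estimated 5731505, 9255057, 14633403 and 10424941 assigned reads in replicates 1 to 4. These depths were inferred from the step between the deposited values and were not reported as counts. The values behave as reads scaled to a library total of 1000000 (CPM). CPM is not corrected for gene length, so levels of different genes are compared below as CPM per kilobase (kb) of coding sequence. All 8 sensory neuron, 6 Schwann cell and 5 satellite glia markers were detected, at summed levels of 12744 to 14760, 12442 to 19219 and 6795 to 7900 CPM. Skeletal muscle markers, 5 of 5 detected, ranged more widely, from 1082 CPM in replicate 2 to 4678 CPM in replicate 1, and 2 of 4 oligodendrocyte markers, Opalin and Olig2, were not detected. In footprints of a bulk tissue, fewer cells of a type, less RNA per cell and fewer ribosomes per mRNA cannot be told apart.

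All 9 genes were detected, meaning at least 1 CPM in every library, and together they took 737, 691, 747 and 699 CPM in replicates 1 to 4 (718 ± 27.4 CPM, SD, n = 4). On the per-kb scale the level fell from Fxr1 (67.3 ± 5.80 CPM per kb) and Fxr2 (60.2 ± 4.40) through Pabpc1 (49.7 ± 2.63) and Larp1 (34.0 ± 1.13) to Fmr1 (24.9 ± 2.71), Cpeb2 (24.6 ± 1.78) and Cpeb4 (23.3 ± 2.37). Cpeb3 (16.4 ± 1.18 CPM per kb) and Pum2 (14.7 ± 1.83) were lowest, and the highest mean was 4.59 times the lowest. Against the median gene of each library, 8 of the 9 were higher per kb, where 46.1% of the 14128 genes tested were called higher (limma, 2-sided, Benjamini-Hochberg adjusted over all genes). Pum2 was the exception, at 0.07 ± 0.08 (SE) log2 units above the median gene with an adjusted p of 0.386. In CPM without length, all 9 were called higher, against a background of 45.7% of 15728 genes. The distance from the median gene depends on which genes are tested: in CPM, Fxr1 was 2.94 log2 units above it for genes averaging at least 1 CPM, 2.31 for those averaging at least 5 CPM and 5.76 with no filter.

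**Figure D1:**
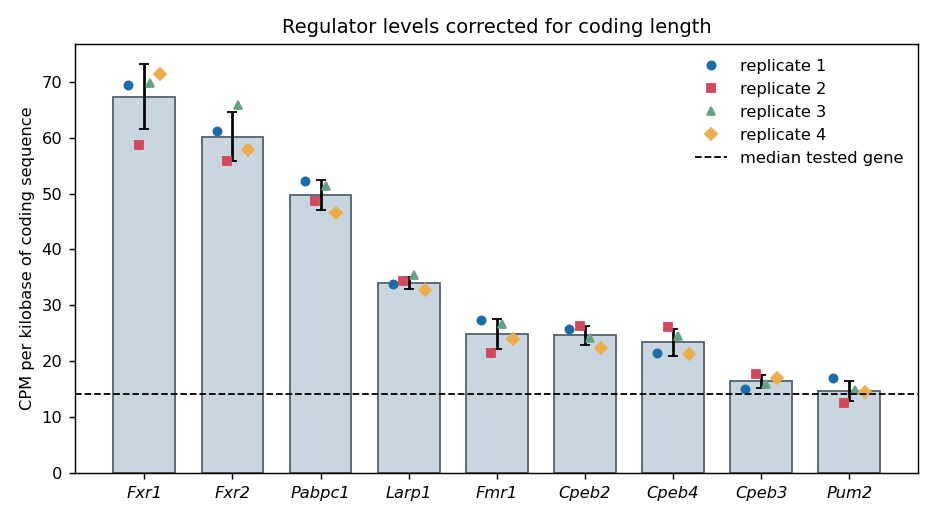
Level of each of the 9 genes in CPM per kb of coding sequence, with points for the 4 libraries, a bar for the mean and a whisker for the SD. Fxr1 and Fxr2 sit highest, and Pum2 and Cpeb3 lowest, with overlapping points.

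Fmr1 (ENSMUSG00000000838.17, chromosome X, 68678541 to 68717963, plus strand, GRCm38 here and below), the gene whose silencing causes fragile X syndrome in humans, had 51.8, 40.6, 50.5 and 45.4 CPM in replicates 1 to 4. Its paralogue Fxr1 (ENSMUSG00000027680.15, chromosome 3, 34019943 to 34070322, plus strand), needed for muscle development in mice, had 141, 119, 142 and 145 CPM. The other paralogue, Fxr2 (ENSMUSG00000018765.5, chromosome 11, 69632990 to 69653297, plus strand), had 124, 113, 133 and 117 CPM. Replicate 2 was the lowest library for all 3 genes, and the Fmr1 range lay below those of Fxr1 and Fxr2, which overlapped each other. Per kb, Fxr1 exceeded Fmr1 2.64-fold (log2 difference 1.40 ± 0.10, SD, higher in 4 of 4 libraries) and Fxr2 exceeded it 2.37-fold (1.24 ± 0.09, 4 of 4). Fxr1 and Fxr2 differed by 0.16 ± 0.11 log2 units per kb, with Fxr1 higher in 4 of 4. The size of this difference depends on the length used. It was 0.41 per kb of the median annotated coding length and 0.33 per kb of coding sequence not shared with other genes. Against the median gene per kb, Fxr1 was 4.59-fold, Fxr2 4.11-fold and Fmr1 1.73-fold higher on the log2(value + 1) scale, with SEs of 0.07, 0.06 and 0.07 log2 units (limma, adjusted p = 1.6e-10, 1.3e-10 and 6.3e-07). Within the family's summed level per kb, Fmr1 made up 16.3% ± 0.77, Fxr1 44.2% ± 1.69 and Fxr2 39.5% ± 1.57 (SD, n = 4).

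Fmr1 and Fxr2 had no 30-nt coding word in common with another annotated gene, so footprints of that length can be told apart among the paralogues. For Fxr1, 88.7% of coding words were unique, and 124 of the others lie in Dnajc19, a mitochondrial import gene that overlaps Fxr1 on the opposite strand and had 13.4 CPM. Another 102 lie in Gm17795, for which no level was found under that name. The start of the coding sequence is shown because ribosomes select it there, with 12 bases before the start codon, which is in capitals, from GENCODE M21 (GRCm38), plus strand for all 3.
Fmr1, start codon chrX:68678817-68678819: acggacgagaagATGgaggagctggtggtg
Fxr1, start codon chr3:34020113-34020115: tgcggttccaacATGgcggagctgacggtg
Fxr2, start codon chr11:69633318-69633320: ggtggcggcgccATGggcggcctggcctct
These 3 have a purine 3 bases before the start codon and a G directly after it, the 2 positions best known for start codon choice. None of the other 6 genes has both in its annotated transcript, and 41.6% of 19598 coding transcripts do. The Cpeb2 transcript has no base annotated before its start codon.

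**Figure D2:**
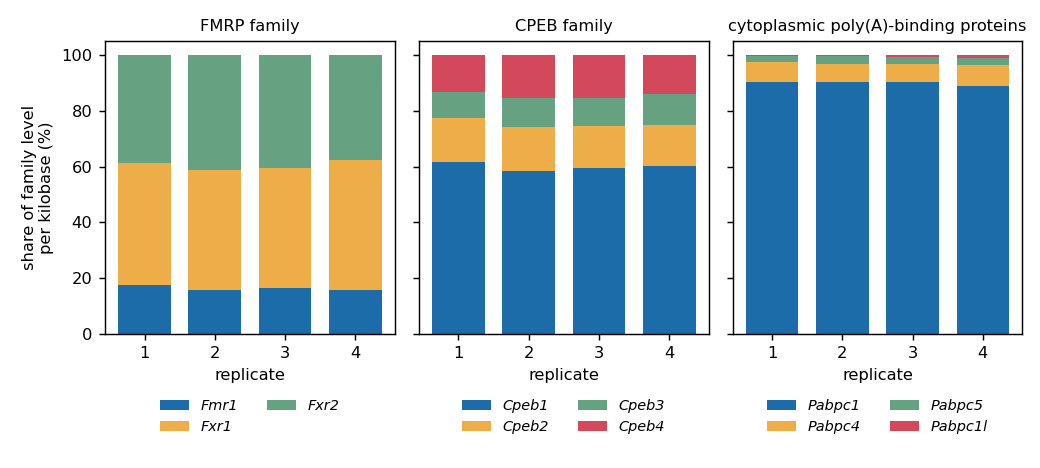
Share of each paralogue in the summed CPM per kb of its family, in percent, by library. Fmr1 holds the smallest share of its family in all 4 libraries, and Cpeb1 and Pabpc1 hold the largest shares of theirs.

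Cpeb2, Cpeb3 and Cpeb4 encode the closely related branch of the CPEB family, of which Cpeb3 is known from rodent neurons to control mRNAs of glutamate receptors. Cpeb2 (ENSMUSG00000039782.14, chromosome 5, 43233170 to 43289724, plus strand) had 79.0, 80.4, 73.9 and 68.4 CPM in replicates 1 to 4. Cpeb3 (ENSMUSG00000039652.16, chromosome 19, 37021291 to 37208601, minus strand) had 32.3, 38.1, 34.4 and 36.4 CPM. Cpeb4 (ENSMUSG00000020300.14, chromosome 11, 31872211 to 31935634, plus strand) had 46.8, 57.0, 53.7 and 46.7 CPM. All 3 were highest in replicate 2, the library in which Fmr1, Fxr1, Fxr2 and Pum2 were lowest, and their ranges in CPM did not overlap. For each of the 3, the 95% counting interval in replicate 2 overlapped that of its next library. Per kb, Cpeb2 and Cpeb4 overlapped (log2 difference 0.07 ± 0.13, Cpeb2 higher in 3 of 4 libraries), while Cpeb2 exceeded Cpeb3 by 0.56 ± 0.15 and Cpeb4 exceeded Cpeb3 by 0.48 ± 0.12, each in 4 of 4. Against the median gene per kb, Cpeb2 was 0.78 ± 0.07 (SE), Cpeb4 0.71 ± 0.08 and Cpeb3 0.23 ± 0.08 log2 units higher (limma, adjusted p = 1.1e-06, 5.4e-06 and 0.0184).

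The founding family member, Cpeb1, was at 96.5 ± 3.67 CPM per kb and held 60.0% ± 1.26 of the family level per kb. Cpeb2, Cpeb3 and Cpeb4 held 15.3% ± 0.55, 10.2% ± 0.77 and 14.5% ± 1.08. Cpeb1, which drives cytoplasmic polyadenylation in oocytes, thus had more per kb than the 3 members summed in every library, with shares of 58.6% to 61.6%. In CPM not corrected for length this did not hold in every library, with a Cpeb1 share of 50.2% ± 1.18 and a range of 48.8% to 51.6%. Cpeb4 had no coding word in common with another gene, and 96.4% of the Cpeb2 words and 97.8% of the Cpeb3 words were unique. The Cpeb3 locus overlaps March5 on the opposite strand, at 34.3 CPM, with no coding word shared.

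Pum2 (ENSMUSG00000020594.14, chromosome 12, 8674134 to 8752581, plus strand), encoding a Pumilio protein that represses mRNAs and recruits a deadenylase, had 54.1, 39.8, 47.4 and 46.5 CPM in replicates 1 to 4. Replicate 1 was highest and replicate 2 lowest, a ratio of 1.36 that was the widest among the 9 genes. In CPM, Pum2 was above Cpeb3 in 4 of 4 libraries, but per kb it was below it in 3 of 4 (log2 difference Cpeb3 over Pum2 0.16 ± 0.27), with overlapping ranges.

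Pumilio proteins recognise the word TGTANATA, written here as DNA, and the sites found in the longest annotated 3′ UTR of each gene are shown because they lie in mRNAs of this same group of regulators. Only the transcript strand was searched, the motif is in capitals with 10 bases on each side, and coordinates are GRCm38 for the motif.
Fmr1, chrX:68717299-68717306, plus strand: tttaaaatacTGTAGATAattaaccaag
Fmr1, chrX:68717360-68717367, plus strand: caatattctcTGTACATAttagcgacaa
Cpeb2, chr5:43286414-43286421, plus strand: gttttcagtgTGTACATAaactaaaaat
Cpeb3, chr19:37022128-37022135, minus strand: ccttttgtttTGTAAATAaatgtgcccc
Pum2, chr12:8750165-8750172, plus strand: tttatagagaTGTATATAgaattatagt
Pum2, chr12:8750418-8750425, plus strand: tgtacagaatTGTATATActtataattg
The Pum2 3′ UTR thus holds 2 matches to the word its own protein binds, as does the Fmr1 3′ UTR. The word occurs in 65.9% of 3′ UTR ends as long as the Pum2 3′ UTR (5886 bases), in 37.0% at the Fmr1 length (2288 bases), in 52.0% at the Cpeb2 length and in 50.3% at the Cpeb3 length. In the last 500 bases, 0 of the 8 members with a 3′ UTR that long held it, where 13.0% of 15042 genes did. The words of the cytoplasmic polyadenylation element, TTTTAT or TTTTAAT, occurred in the last 500 bases of 5 of these 8 (Fmr1, Cpeb2, Cpeb3, Cpeb4 and Larp1). Of all genes with a 3′ UTR that long, 46.0% held either word there. Whether CPEB2, CPEB3 or CPEB4 bind these words was not tested. Cpeb2 had 8 copies of TTTTAT there and Cpeb4 had 4. A match is a description of the letters and not a measured binding site.

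Pabpc1 (ENSMUSG00000022283.14, chromosome 15, 36595661 to 36609668, minus strand), encoding the main cytoplasmic protein on poly(A) tails, had 99.8, 92.9, 98.1 and 88.8 CPM in replicates 1 to 4. Larp1 (ENSMUSG00000037331.15, chromosome 11, 58009064 to 58062034, plus strand), whose protein binds mRNAs with a 5′ terminal oligopyrimidine tract and associates with PABPC1, had 108.5, 110.2, 114 and 105 CPM. Larp1 had the lowest coefficient of variation (CV) of the 9 in CPM, at 3.32%, whereas relative to each library's median gene the SD was smallest for Fxr2 (0.03 log2 units, against 0.06 for Larp1). The Larp1 range lay above that of Pabpc1 in CPM. Per kb the order turned, with Pabpc1 above Larp1 by 0.53 ± 0.06 log2 units in 4 of 4 libraries. Pabpc1 was 1.77 ± 0.06 (SE) and Larp1 1.24 ± 0.06 log2 units above the median gene per kb (limma, adjusted p = 3.9e-10 and 8.5e-09). Pabpc1 made up 90.1% ± 0.67 of the level per kb of the cytoplasmic poly(A)-binding genes, and Pabpc4, Pabpc5 and Pabpc1l made up 6.86% ± 0.51, 2.55% ± 0.12 and 0.474% ± 0.283.

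The Pabpc1 and Larp1 values carry a limit that the other 7 do not share to this extent. Only 49.2% of the Pabpc1 coding words and 77.4% of the Larp1 coding words were unique. The words shown were taken from the middle of the longest stretch shared with the closest annotated copy, because a footprint of this sequence cannot be placed at 1 locus (GRCm38).
Pabpc1 shared with Gm16580, chr15:36599369-36599398, minus strand: cagagatgaatggtagaattgtggccacga
Larp1 shared with Gm16425, chr11:58049882-58049911, plus strand: aattgatgaccgggatgtcaataagatcct
The shared stretches are 178 and 121 bases long. The copies themselves had 0.497 CPM (Gm16580) and 0.926 CPM (Gm16425), and the sources used here do not give how reads matching several places were counted. Per kb of unique coding sequence, which assumes that shared reads were not counted, Pabpc1 would be first of the 9 (103 ± 5.41 CPM per kb) and Fxr1 next (77.0 ± 6.63). The Fxr1 length used there also leaves out the 124 words in common with Dnajc19 and the 102 in common with Gm17795. Dnajc19 overlaps Fxr1 on the opposite strand and is not a distant copy.

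**Figure D3:**
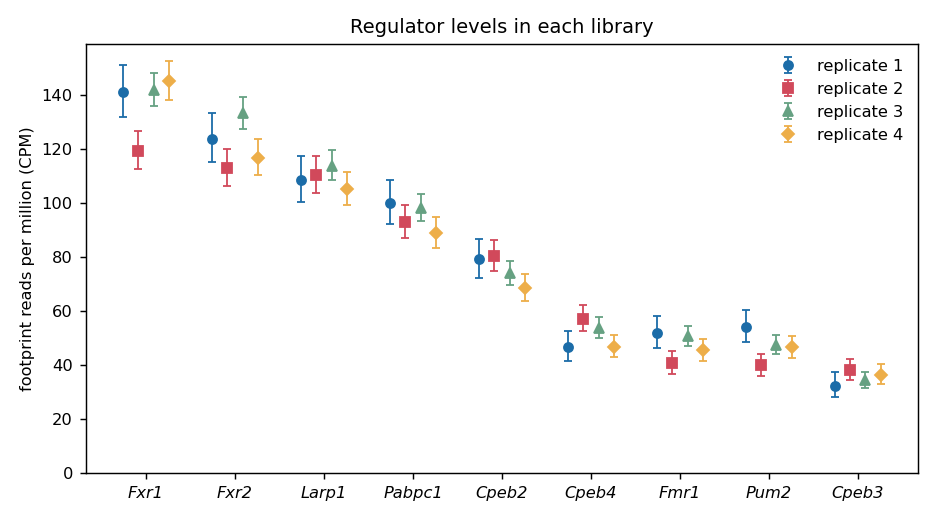
Level of each of the 9 genes in CPM by library, not corrected for length. Points are single libraries and whiskers their 95% Wilson intervals, which cover counting error only. Fxr1 stands lowest in replicate 2, at 119 CPM against 141 to 145 CPM in the others.

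Across the 36 gene pairs, 1 member was higher in every library in 32 pairs per kb and in 33 pairs in CPM. These pairs had the smallest p that the exact 2-sided sign-flip permutation test can give with 4 libraries (0.141 per kb after adjustment over the 36 pairs), so no pair could pass 0.05. Between neighbours in the per-kb order, the ranges did not overlap for Fxr2 and Pabpc1 (0.27 ± 0.07), Pabpc1 and Larp1, Larp1 and Fmr1 (0.44 ± 0.15), and Cpeb4 and Cpeb3. The ranges overlapped for Fxr1 and Fxr2, Fmr1 and Cpeb2 (0.01 ± 0.19), Cpeb2 and Cpeb4, and Cpeb3 and Pum2. The place of Pabpc1 below Fxr1 and Fxr2 depends on the length used. Per kb of unique coding sequence, the log2 ratio to Pabpc1 was -0.74 for Fxr2 and -0.41 for Fxr1, each higher than Pabpc1 in 0 of 4 libraries.

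None of the 9 varied between libraries beyond genes of its level, where 2.01% of 15728 genes were called (F test against limma's prior variance, adjusted over all genes). The lowest unadjusted p among the 9 was 0.324, for Cpeb4, and 0 of 9 were below an unadjusted 0.05. Their CVs ran from 3.32% for Larp1 to 12.5% for Pum2 with a median of 7.32%, and the 3664 genes with means in the same range had a median CV of 9.86%. In replicate 2, where Fmr1, Fxr1, Fxr2 and Pum2 were lowest and the 3 CPEB genes highest, the summed markers of sensory neurons were highest (14760 CPM), as were those of erythroid cells (742 CPM). Those of satellite glia (6795 CPM), macrophages (375 CPM), oligodendrocytes (5.83 CPM), skeletal muscle (1082 CPM), fibroblasts (8736 CPM) and adipocytes (189 CPM) were lowest in that library. Those of Schwann cells (13992 CPM) and endothelium (190 CPM) were neither highest nor lowest there. The next library was at 14520 CPM for sensory neurons (replicate 3) and at 735 CPM for erythroid cells (replicate 1). Of the regulators highest or lowest in replicate 2, only Fxr1 had a 95% counting interval there clear of the next library. The Fxr1 interval was 112 to 127 CPM in replicate 2 and 132 to 151 CPM in replicate 1. For Cpeb2 the intervals were 74.8 to 86.4 CPM in replicate 2 and 72.1 to 86.7 CPM in replicate 1. Most of these ranks are thus within counting error. The part of all these cell types in the gene differences in replicate 2 was not tested.

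**Figure D4:**
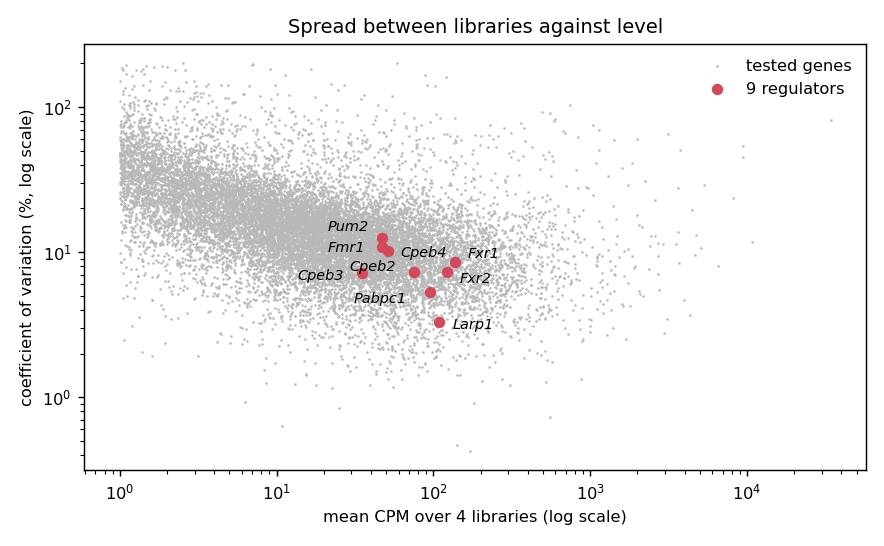
Coefficient of variation over 4 libraries, in percent, against mean CPM (both axes logarithmic) for the tested genes, with the 9 genes named. The 9 lie between 3.32% and 12.5%, within the spread of genes at their level.

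The partners and pathways of these proteins were read from 8 lists of 88 genes in all, of which 79 had a mean of at least 1 CPM. Per kb, 51 of the 79 were above the median gene, 23 below and 5 not called, beside backgrounds of 46.1% above and 46.2% below.

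Of the FMRP partners, 9 of 11 were above the median gene, 1 below and 1 not called, with a list median of 1.70 log2 units per kb. Caprin1, an RNA granule protein, was at 190 ± 7.14 CPM per kb. Cyfip2 (108 ± 3.61 CPM per kb) and Cyfip1 (72.2 ± 4.30 CPM per kb) link FMRP to the cap-binding factor eIF4E and to actin regulation. Of 16 known FMRP target mRNAs, 8 were above and 8 below, with a list median of -0.004. The highest were Mbp (3451 ± 789 CPM per kb), which is also a Schwann cell marker, Map1b (1461 ± 173 CPM per kb), encoding a microtubule-associated protein of axons, and App (882 ± 47.9 CPM per kb), encoding the amyloid precursor. The metabotropic glutamate receptor gene Grm5 was not detected by the rule of 1 CPM in every library, with 0.349, 1.94, 3.28 and 2.30 CPM.

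Of 10 cytoplasmic polyadenylation genes other than the members, 5 were above, 4 below and 1 not called (list median 0.11 per kb). Cpeb1 was highest on both scales, and the next in CPM not corrected for length were the scaffold gene Sympk, at 25.8 ± 1.25 CPM per kb and the cleavage factor gene Cpsf2, at 29.0 ± 3.87 CPM per kb. The genes of Pumilio partners known from the germ line, Nanos1 and Nanos3, were not detected and averaged 0.734 and 0.231 CPM, and all 4 libraries were at 0 for Nanos2, where 3 reads in the deepest library are 0.205 CPM. Among 18 deadenylation genes, 11 were above, 5 below and 2 not called (list median 0.34). The scaffold gene of the CCR4-NOT complex, Cnot1, was at 16.4 ± 1.17 CPM per kb, its ubiquitin ligase gene Cnot4 at 29.3 ± 3.55 CPM per kb, and the gene of the complex-associated protein Tnks1bp1 at 15.4 ± 0.54 CPM per kb, which was not called (adjusted p = 0.0599, limma).

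Of the poly(A)-binding proteins and their partners, 4 were above and 2 below among 6 tested of 10 (list median 1.38 per kb). The highest was Paip2, an inhibitor of PABP, at 307 ± 61.4 CPM per kb, and Paip2b, encoding a related inhibitor and named here after its value was seen, came next at 64.8 ± 6.94 CPM per kb. The PABP activator Paip1 (39.2 ± 3.51 CPM per kb) and the nuclear poly(A)-binding gene Pabpn1 (36.2 ± 3.74 CPM per kb) were lower. Pabpc2, Pabpc6, Pabpc1l and Pabpn1l were not detected, with means of 0.122, 0.156, 0.470 and 0.0173 CPM. La-related genes split 3 above, 2 below and 1 not called (median 0.21), led by Ssb, encoding the La protein, at 98.0 ± 8.22 CPM per kb, with Larp4b at 34.1 ± 1.65 and Larp4 at 17.8 ± 2.06 CPM per kb. Of the other mRNA transport and translation regulators, 10 of 11 tested were above and 1 below (median 1.32). The RNA helicase gene Ddx6, the Staufen gene Stau1 and the dendritic transport gene Pura were at 99.7 ± 2.66, 62.2 ± 4.28 and 87.9 ± 5.61 CPM per kb, and Igf2bp1 and Igf2bp3 were not detected, with means of 0.116 and 0.193 CPM.

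**Figure D5:**
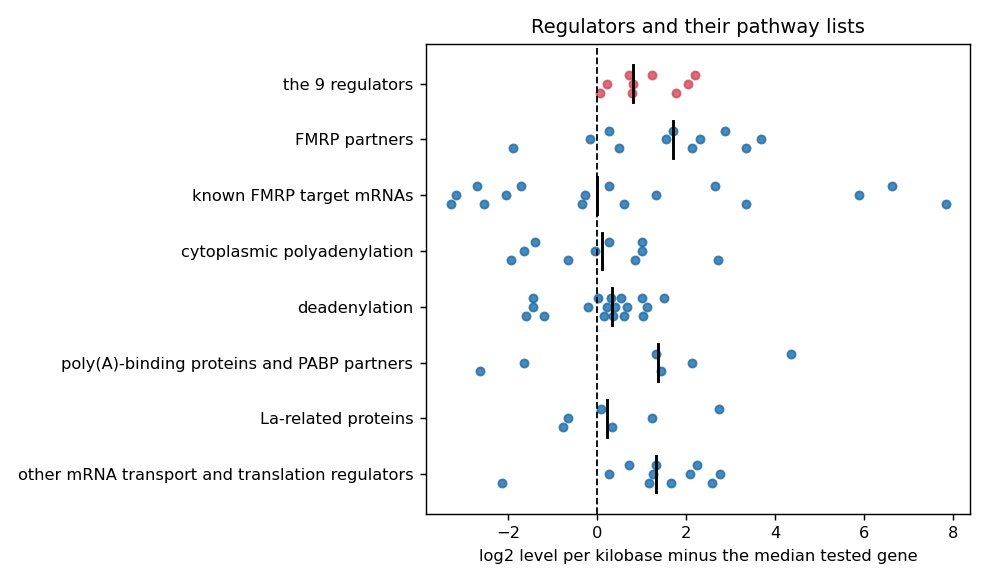
Level of the tested genes of 7 lists and of the 9 members, with a bar at each median, relative to the median gene, in log2 units per kb, by list. The FMRP partners and the other transport regulators lie mostly above the median gene, and the FMRP target mRNAs spread widely on both sides.

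By likeness of log2(CPM + 1) over the 4 libraries (Euclidean distance, CPM not corrected for length), the genes nearest to Fxr1 were Dld (0.066), Ddx17 (0.103) and Tbcd (0.116). The nearest to Cpeb3 were A830010M20Rik (0.035), Brms1l (0.103) and March7 (0.107). Within a distance of 0.2 lay 31 genes for Fxr1 and 37 for Cpeb3.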

How the data were processed

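The labels' protocols give ribosome isolation on spin columns, rRNA depletion, a gel cut of 28 to 34 nt and a small-RNA library kit. Cufflinks 2.2.1, Bowtie2 2.2.9, TopHat2 2.1.1 and FastQC 0.11.5, and the builds mm10 and GRCm38.p4, are listed without roles, per the submitters' processing notes, and the sources used here do not give the counting rule. The authors deposited a table named as TPM, but its columns behave as CPM: each sums to 1000000, and 96.5% to 96.8% of values above 0 fall within 0.05 of a whole number of steps, the step being the same for short and long genes. The step gave the depths, with floors of 3 reads at 0.205 to 0.523 CPM, covering counting error only. The tests, planned for TPM, were run on log2(CPM + 1) for genes averaging 1 CPM or more, with limma 3.58.1 in R 4.3.3. Fold changes on this scale are understated for low genes.

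The members and lists were chosen with earlier results of these data known. Gene identifiers matched GENCODE M21 for 48052 genes, 22243 of them with a coding length. The levels were led with CPM per kb of the longest coding sequence, though CPM had been the planned scale, since levels of genes of unequal length are compared. Several choices were made after values were seen. The variance test uses the prior degrees of freedom of ordinary genes, because limma's gene-wise values gave 0 of 15728 genes even at an unadjusted p under 0.05. The family shares were formed with Cpeb1, Pabpc4, Pabpc5 and Pabpc1l, and a Larp1 pair was dropped. The longest 3′ UTR replaced that of the longest-coding transcript. Both tests were checked on simulated data in which all genes had the same spread beyond counting error, apart from those changed on purpose. The check therefore does not cover genes that differ in that spread. Named list genes were the 3 detected with the highest mean CPM per list and all undetected ones; 1 of these genes is not reported here.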

Additional observations from a re-analysis of the deposited data

Results flagged for a closer look

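Among 42 sets of 4 library values tested with Dixon's criterion, 4 had 1 library far from the other 3, and chance alone is expected to give about 1 in 20. Fxr1 was low in replicate 2 at 119 CPM, where the other libraries had 141 to 145 CPM. Relative to each library's median gene, replicate 2 did not stand out in this way. On that scale the Fxr1 SD of 0.11 log2 units became 0.097 without replicate 2 and 0.063 without replicate 4. Map1b was high in replicate 2 at 12696 CPM, where the next library had 10425 CPM. Tnks1bp1 was low in replicate 2 at 75.5 CPM, with the next at 80.5 CPM. The Pabpc1 share of its family per kb was low in replicate 4 at 89.1%, with the next library at 90.4%.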

How the results depend on the processing

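The call of 0 variable members held under every alternative run, including limma's gene-wise prior degrees of freedom (added after seeing the data), which called 0 genes in place of 316; 199 to 284 genes were called without 1 library, 673 with no filter and 67 per kb (added after seeing the data). The level calls of all 9 members held under all alternatives but CPM per kb, where Pum2 was not called; distances from the median gene moved with the filter, for Cpeb3 from 1.02 to 0.38 at a mean of at least 5 CPM and 3.84 with no filter. The summed level of the 9 moved from 718 to 837 CPM when mitochondrial and the 20 highest genes were left out, and to 315, 331 and 392 per kb of the longest, the median and the unique coding sequence, the last 2 added after seeing the data; these are changes of unit. Those scalings moved the median gene by 0.16 (left-out genes) and -0.27 (per kb) log2 units. The log2 ratio of Larp1 to Pabpc1 turned to -0.53 per kb, -0.53 per median kb and -1.19 per unique kb; Cpeb4 to Fmr1 to -0.087, -0.16 and -0.089, and ran from -0.0056 to 0.20 with 1 library left out, below 0 without replicate 2; Cpeb2 to Fmr1 from 0.67 to -0.012, -0.080 and 0.03; Pum2 to Cpeb3 to -0.16, -0.19 and -0.19. The log2 ratios of Fxr1 and Fxr2 to Pabpc1 turned to -0.41 and -0.74 per unique kb. Fmr1 to Pum2 ran from -0.022 to 0.029 with 1 library left out, below 0 without replicate 2 (-0.0017) and replicate 3. Among the 7 lists plotted, medians turned for FMRP targets per kb (-0.0041) and for deadenylation at a mean of at least 5 CPM (-0.27). The cause was not tested. No paired analysis was possible because there is 1 group. The planned edgeR test on whole reads was not run, since the check of the unit did not accept whole reads as recovered for the table. Read numbers given here for the members are rounded, with a largest distance from a whole number of 0.0103 (Fxr2). Depth limits Cpeb3 most, with 185 to 503 reads per library.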
